A study of Mus musculus with 9 samples.

Results

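Interferon-stimulated genes were followed across 3 populations of innate intraepithelial lymphocytes from the mouse small intestine. The genes were 41 fixed names, each taken as the row of the array table that carries that symbol alone, with the brightest row standing for a gene that has more than 1. Of the 41 genes, 37 were measured in this way among 19938 genes in all. Isg15, Gbp2 and Igtp lay on rows that carry several gene symbols, and Ifi44 had no row with its symbol alone, so these 4 genes were not analysed here. Only Irf1 had more than 1 row, and its largest difference between populations was 0.08 in size (log2) on the row used and 0.13 on the other.

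Type I, II and III interferons bind their receptors and act through JAK kinases on STAT proteins. Complexes that hold STAT2 and IRF9 bind the interferon-stimulated response element, and STAT dimers bind the gamma-activated site. The genes downstream encode sensors of viral nucleic acid, proteins that block viral translation and replication, the Isg15 ubiquitin-like system, inducible GTPases and parts of the antigen-processing machinery. In the gut, part of this program is known to run at a low level without overt infection.

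The cells came from NOD-SCID mice aged 8 to 10 weeks, a strain whose scid mutation blocks rearrangement of antigen receptor genes, so that mature T and B cells are largely lacking. The lymphocytes were gated as CD3- CD45+ and sorted, at a purity above 98% per the labels, into Ly49E+CD8aa+, Ly49E+CD8aa- and Ly49E-CD8aa+ cells. Ly49E is an inhibitory receptor of the Ly49 family encoded by Klra5, and CD8aa is a pair of CD8 alpha chains. Total RNA of each population was amplified and hybridised to 3 Affymetrix Mouse Gene 1.0 ST arrays, which the labels call biological replicates. No group was treated, and how many mice each array stands for is not stated, so p-values measure the spread between these arrays. In bulk RNA of sorted cells, fewer cells that express a gene and less RNA per cell cannot be told apart. Values below are log2 expression after RMA, differences are named with their sign (the first population given less the other), SE is its standard error, and levels of different genes were not set against each other.

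The arrays carried the signs of their sorts. Klra5 lay at 11.31 to 11.51 on the 6 arrays of the Ly49E+ populations and at 5.48 to 7.31 on the Ly49E-CD8aa+ arrays. Cd8a lay at 12.51 to 12.64 on the CD8aa+ arrays and at 11.25 to 11.50 on the Ly49E+CD8aa- arrays. The leukocyte gene Ptprc was at 11.74 to 11.92 on every array. The medians of the arrays over all rows lay between 5.76 and 5.82, which RMA makes alike.

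The promoters of the genes are shown first, because they carry the letters by which this family is usually recognised. RefSeq windows on GRCm38.p6, from 250 bases before to 50 bases after a transcript start, were found for 32 of the 41 genes. The core of the interferon-stimulated response element, searched on both strands as TTTC, any 2 bases and TTTC again, was present in 15 of those 32 (46.9%), against 1079 of 27025 genes with such a window (3.99%). The palindrome of the gamma-activated site, TTCNNNGAA, was present in 8 of 32 (25%), against 9.55% of all genes. At least 1 of these motifs was present in 19 of 32 (59.4%), against 12.9%. Adding the closer spacing TTTCNTTTC, whose matches can overlap those of the core, raised the first count to 18 of 32 (56.2%), against 7.27%. The list was drawn up from genes known for this regulation, so the shares describe the list, and a match is a run of letters and not a measured binding site. Among the 37 measured genes, 13 had an unadjusted p under 0.05 in a comparison of populations. Of those 13, 11 had a window and 8 of the 11 held the response-element core, while 4 of 17 windows held it among the other 24 genes. This contrast was not tested. Usp18 and Rtp4, also among the 13, had no window, and the windows of Ifit2, Oasl2 and Tap1 lacked the core. A stretch of 30 or 60 bases from each of the 8 windows follows, each gene written 5′ to 3′ on its own strand. Capitals mark each match of that core, on either strand, that lies whole in the stretch.

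Ifih1 (chr2:62646206-62646235, - strand, match 32 to 41 bases after the start): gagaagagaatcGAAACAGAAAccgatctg
Eif2ak2 (chr17:78882535-78882564, - strand, match 18 to 27 bases after the start): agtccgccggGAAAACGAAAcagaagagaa
Ifit1 (chr19:34640779-34640838, + strand, match 76 to 85 bases before the start): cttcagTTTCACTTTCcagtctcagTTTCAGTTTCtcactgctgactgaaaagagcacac
Ifit3 (chr19:34583397-34583426, + strand, match 113 to 122 bases before the start): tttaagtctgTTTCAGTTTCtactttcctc
Oas1a (chr5:120907526-120907555, - strand, match 5 to 14 bases before the start): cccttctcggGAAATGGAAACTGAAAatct
Rsad2 (chr12:26456538-26456597, - strand, match 111 to 120 bases before the start): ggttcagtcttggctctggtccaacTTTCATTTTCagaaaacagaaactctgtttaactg
Bst2 (chr8:71537562-71537621, - strand, match 115 to 124 bases before the start): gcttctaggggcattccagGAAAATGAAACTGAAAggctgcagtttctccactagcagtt
Gbp3 (chr3:142559995-142560024, + strand, match 30 to 39 bases before the start): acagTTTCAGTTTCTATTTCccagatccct

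Relative to the transcript start of its window, the match lies after the start in Ifih1 and Eif2ak2 and before it in the other 6 genes shown. In Ifit3 and Oas1a that start lies inside the annotated span of the gene, and the match lies inside the span too. In Gbp3 the start lies inside the span and the match outside it. In Ifit1, Oas1a, Bst2 and Gbp3 the capitals cover more than 1 match, and the position given is that of the match nearest the start. The window of Ifit3 holds another match outside the stretch shown. Ifit1, Ifit3 and Gbp3 carry the motif in the TTTC orientation, as does Rsad2, while Ifih1, Eif2ak2, Oas1a and Bst2 carry it as GAAA. Stat2, Trim30a, Oas3 and Irgm1 also held the motif and had no unadjusted p under 0.05.

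Across the 3 populations the differences of the interferon-stimulated genes were under 1 (log2) in size, and a larger share of them than of all genes differed by 0.2 or more. Of the 37 genes, 18 had no difference of 0.2 or more in size in any comparison (48.6%, against 73.3% of all genes). A difference of 0.5 or more was reached by 5 genes (13.5%, against 4.15% of all genes), namely Ifit3, Oasl2, Usp18, Oas1a and Bst2. The moderated F test of limma over the 3 populations called 0 of 37 at an adjusted p under 0.05, with 2.03% of all genes called. At an unadjusted p under 0.05 the F test passed 8 of 37 (21.6%), against 9.05% of all genes. The genes were also less steady between arrays of one population than genes at large, with a median residual SD of 0.151 against 0.124, and 24 of 37 lay above the latter. The steadiest was Trim30a at 0.0432 and the least steady was Mx2 at 0.463. Only 1 of the 37 genes had a mean under the 25th percentile of rows on every array. All genes were not matched to the 37 by expression level, and the 37 were chosen with earlier results known. The shares and SDs above therefore do not single out the family. The median SE of a difference was 0.113 for the 37 genes and 0.0976 for all genes, so differences of the size most of them showed were not resolved with 3 arrays per population.

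**Figure D1:**
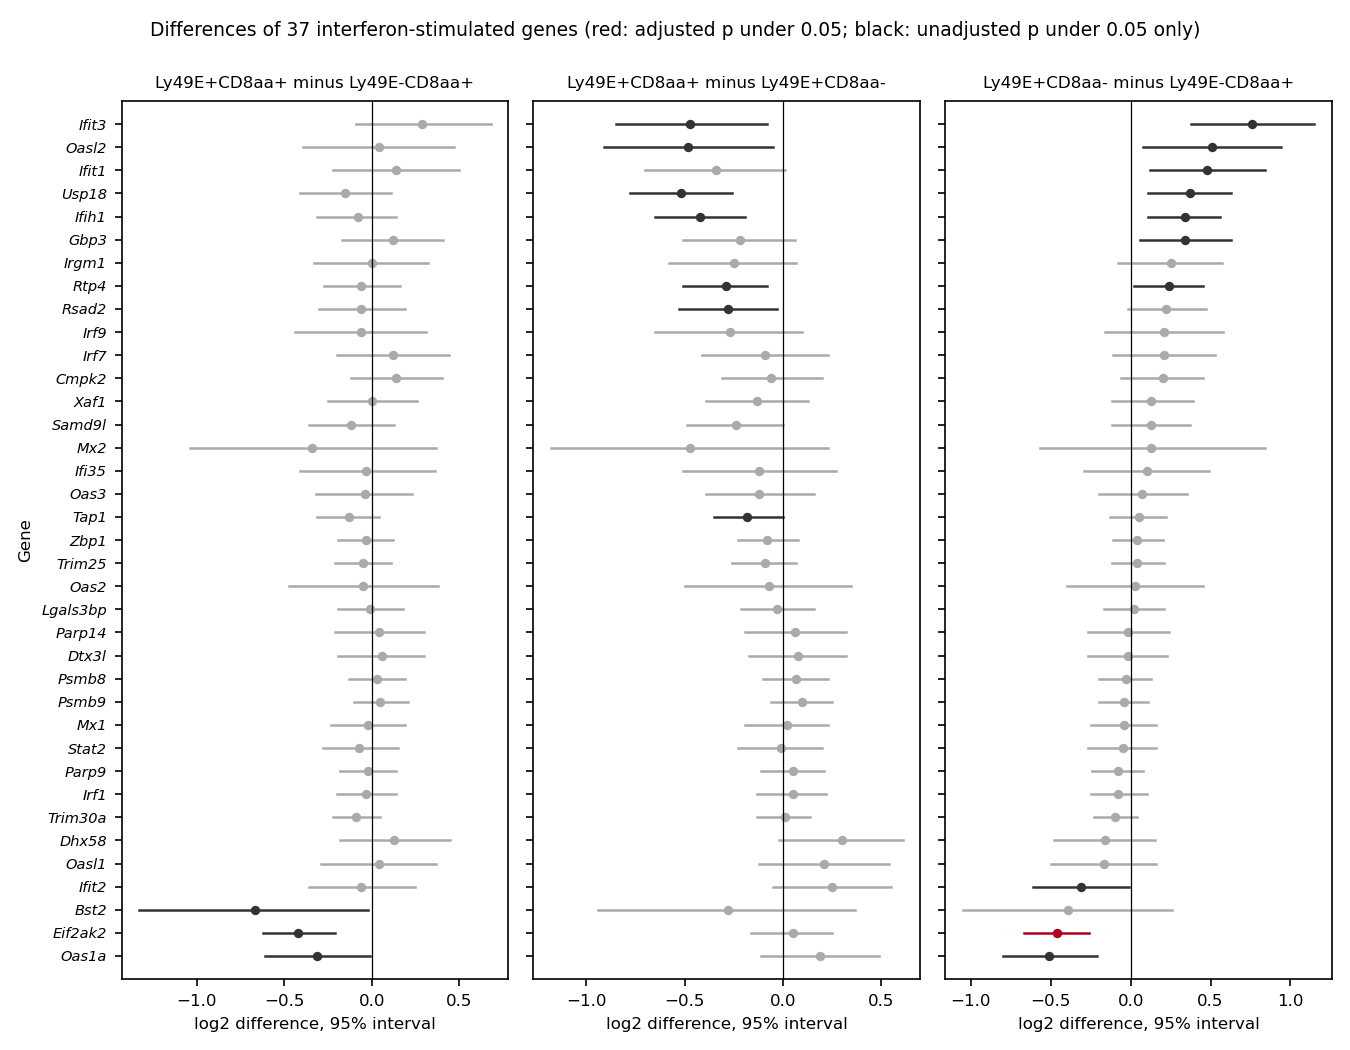
log2 differences of the 37 measured interferon-stimulated genes (points) with 95% intervals from the limma fit (lines), in the 3 comparisons, each on its own axis, sorted by the difference between Ly49E+CD8aa- and Ly49E-CD8aa+. Red marks an adjusted p under 0.05, which is met by Eif2ak2 alone in the right panel, and black marks an unadjusted p under 0.05 only.

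The comparison of Ly49E+CD8aa- with Ly49E-CD8aa+ cells, which differ in both sort markers, held the widest difference of any of these genes (Ifit3, 0.76). The median size of a difference was 0.133 in it, and 0.130 between Ly49E+CD8aa+ and Ly49E+CD8aa- cells. Eif2ak2 was called lower in Ly49E+CD8aa- cells, while Ifit3, Ifit1, Oasl2, Usp18 and Ifih1 had higher values there without passing the adjusted threshold. Of the 37 genes, 1 was called, in the lower direction (2.7%, with 0.802% of all genes called lower, 1.35% higher and 2.15% either way). At an unadjusted p under 0.05, 7 genes were higher, namely Ifih1, Usp18, Ifit1, Ifit3, Oasl2, Rtp4 and Gbp3 (18.9%, against 4.55% of all genes). Another 3 were lower, namely Eif2ak2, Ifit2 and Oas1a (8.11%, against 5.89%). The 3 arrays of each population did not overlap for 6 genes that were higher (16.2%, against 5.29%) and 3 that were lower (8.11%, against 7.45%). The median difference of the 37 genes was 0.04, with -0.02 over all genes, and 22 of 37 were above 0 (59.5%, against 41.2% of all genes).

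In the comparison of Ly49E+CD8aa+ with Ly49E+CD8aa- cells, which share Ly49E, the values leaned towards the CD8aa- cells. None of the 37 genes was called (0 of 37, with 1.7% of all genes called, 1.22% lower and 0.476% higher). At an unadjusted p under 0.05, 7 genes were lower in Ly49E+CD8aa+ cells, namely Ifih1, Usp18, Ifit3, Oasl2, Rsad2, Rtp4 and Tap1 (18.9%, against 4.47% of all genes), and none was higher (4.96% of all genes). The arrays did not overlap for 6 genes, all lower (16.2%, against 5.52% lower and 7.41% higher over all genes). These were Ifih1, Usp18, Ifit3 and Tap1, with Trim25 and Irgm1 named here after their values were seen. The median difference was -0.09, with 0.03 over all genes, and 24 of 37 were below 0 (64.9%, against 40.4% of all genes). The Ly49E+CD8aa- arrays enter both this comparison and the one before, so their values are given side by side below and not as separate support.

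In the comparison of Ly49E+CD8aa+ with Ly49E-CD8aa+ cells, which share CD8aa, the genes were close to each other. None of the 37 was called (0 of 37, with 0.13% of all genes called, 0.11% lower and 0.0201% higher). At an unadjusted p under 0.05, Eif2ak2, Oas1a and Bst2 were lower in Ly49E+CD8aa+ cells (8.11%, against 2.48% of all genes), and none was higher (1.71% of all genes). The arrays did not overlap for 3 genes, all lower (8.11%, against 3.38% lower and 2.88% higher over all genes), namely Eif2ak2, Oas1a and Trim30a, the last named here after its values were seen. The median size of a difference was 0.06 for the 37 genes and 0.07 for all genes.

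**Figure D2:**
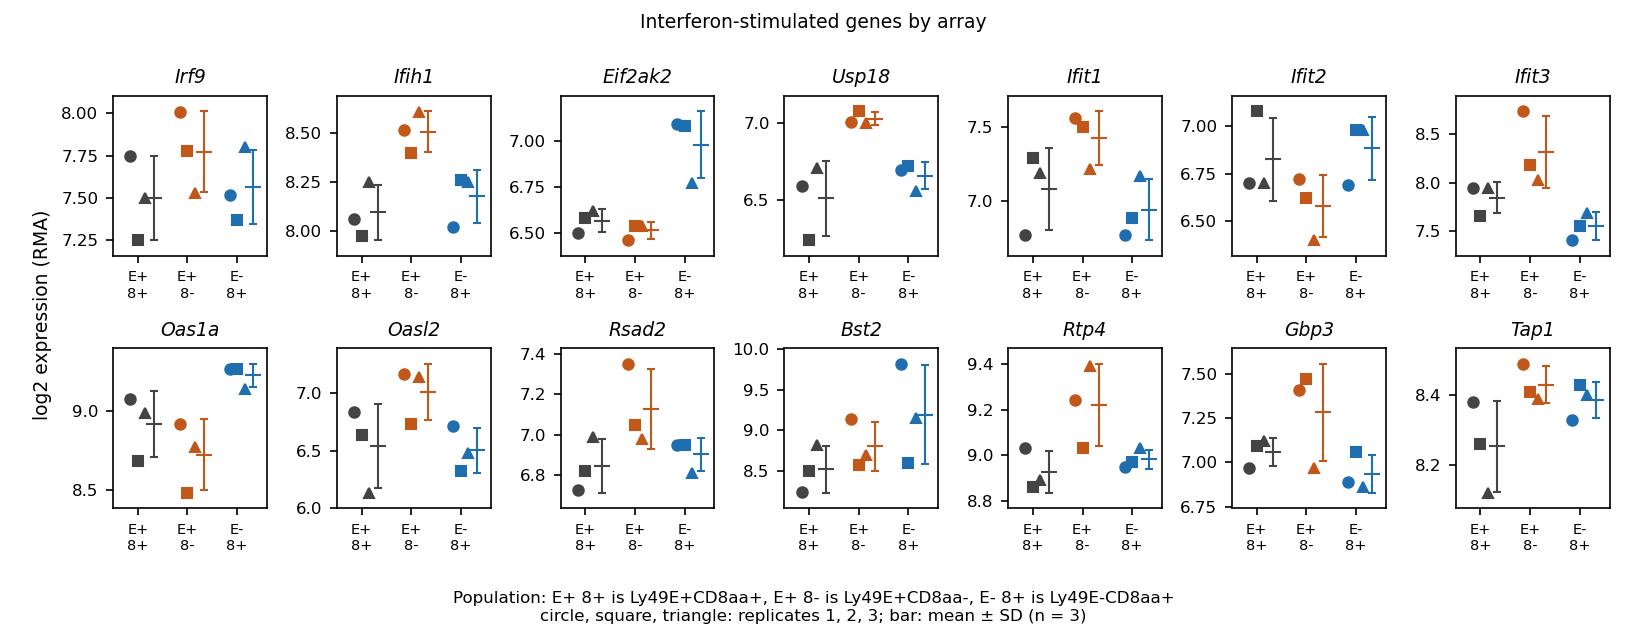
log2 expression (RMA) of the 14 interferon-stimulated genes described array by array, 1 panel each with its own axis, in the 3 populations. Points are arrays and bars the mean ± SD over 3 arrays. Eif2ak2 lies lower on all 6 Ly49E+ arrays than on the Ly49E-CD8aa+ arrays, and Usp18 and Ifih1 lie highest on the Ly49E+CD8aa- arrays.

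Among the signalling factors, Irf9, the DNA-binding partner of STAT2, had the widest difference. Irf9 lay at 7.75, 7.25 and 7.50 on the Ly49E+CD8aa+ arrays, at 8.01, 7.78 and 7.53 on the Ly49E+CD8aa- arrays and at 7.52, 7.37 and 7.80 on the Ly49E-CD8aa+ arrays. All 3 populations overlapped, and the difference of Ly49E+CD8aa+ from Ly49E+CD8aa- was -0.27 (SE 0.166, adjusted p = 0.699, limma). Stat2, the STAT specific to type I and III interferons, Irf7, the amplifier of type I interferon genes, and Irf1, an early target of interferon gamma, differed between populations by at most 0.21 in size. None of these 4 factors had an unadjusted p under 0.05.

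The RNA and DNA sensors held the 1 call. Eif2ak2 encodes PKR, the kinase that binds double-stranded RNA and halts translation. Eif2ak2 lay at 6.50, 6.58 and 6.62 in Ly49E+CD8aa+ cells, at 6.46, 6.54 and 6.54 in Ly49E+CD8aa- cells and at 7.09, 7.08 and 6.77 in Ly49E-CD8aa+ cells. All 6 Ly49E+ arrays were below all 3 Ly49E-CD8aa+ arrays, while both Ly49E+ populations overlapped. For Eif2ak2, Ly49E+CD8aa- differed from Ly49E-CD8aa+ by -0.46 (SE 0.091, 1.38-fold lower, adjusted p = 0.0338, limma). For Eif2ak2, Ly49E+CD8aa+ differed from Ly49E-CD8aa+ by -0.42 (SE 0.091) with an adjusted p of 0.409 (limma), and the F test over the 3 populations gave an adjusted p of 0.0538. The call passed in 8 of 19 alternative settings, over which its adjusted p (limma) ran from 0.00659 to 0.357. It was lost when any 1 array was left out, except the third of the Ly49E-CD8aa+ arrays, without which the difference was -0.57.

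Ifih1 encodes MDA5, the cytoplasmic sensor of long double-stranded RNA. Ifih1 lay at 8.52, 8.40 and 8.61 in Ly49E+CD8aa- cells, at 8.06, 7.97 and 8.25 in Ly49E+CD8aa+ cells and at 8.02, 8.26 and 8.25 in Ly49E-CD8aa+ cells. Its Ly49E+CD8aa- arrays were above the other 6, which overlapped each other. For Ifih1, Ly49E+CD8aa+ differed from Ly49E+CD8aa- by -0.42 (SE 0.0999, adjusted p = 0.0919, limma), and Ly49E+CD8aa- differed from Ly49E-CD8aa+ by 0.34 (SE 0.0999, adjusted p = 0.2). Dhx58, which encodes LGP2, a modulator of MDA5 and RIG-I, and Zbp1, a sensor of Z-form nucleic acid, had no unadjusted p under 0.05, with differences of at most 0.30 and 0.08 in size.

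In the Isg15 system, Usp18, which removes Isg15 from proteins and restrains the type I interferon receptor, stood apart from the ligases. Usp18 lay at 7.01, 7.08 and 7.0 in Ly49E+CD8aa- cells, at 6.59, 6.24 and 6.71 in Ly49E+CD8aa+ cells and at 6.70, 6.72 and 6.56 in Ly49E-CD8aa+ cells. The Ly49E+CD8aa- arrays were above all others, with an SD of 0.0403. For Usp18, Ly49E+CD8aa+ differed from Ly49E+CD8aa- by -0.52 (SE 0.115, 1.43-fold lower, adjusted p = 0.07, limma), and Ly49E+CD8aa- differed from Ly49E-CD8aa+ by 0.37 (SE 0.115, adjusted p = 0.225). The first passed the threshold in 2 of 19 alternative settings. Trim25, a ubiquitin ligase acting on RIG-I, Trim30a, Dtx3l and its partner Parp9, and Parp14, a mono-ADP-ribosyltransferase, differed by at most 0.10 in size. Trim30a lay at 10.13, 10.08 and 10.11 in Ly49E+CD8aa+ cells, at 10.13, 10.13 and 10.03 in Ly49E+CD8aa- cells and at 10.15, 10.22 and 10.22 in Ly49E-CD8aa+ cells. The Ly49E-CD8aa+ arrays were the highest, and the difference of Ly49E+CD8aa+ from them was -0.09 (SE 0.06), which did not pass the test.

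The IFIT proteins bind foreign or uncapped RNA and block its translation. The 3 measured genes did not share a pattern. Ifit3 lay at 8.73, 8.18 and 8.03 in Ly49E+CD8aa- cells, at 7.94, 7.66 and 7.94 in Ly49E+CD8aa+ cells and at 7.41, 7.56 and 7.69 in Ly49E-CD8aa+ cells. Its Ly49E+CD8aa- arrays were above all others, the first by a wide margin, and the other populations overlapped. For Ifit3, Ly49E+CD8aa- differed from Ly49E-CD8aa+ by 0.76 (SE 0.171, 1.7-fold higher, adjusted p = 0.0648, limma), the widest of any of the 37 genes, and it passed in 2 of 19 alternative settings. For Ifit3, Ly49E+CD8aa+ differed from Ly49E+CD8aa- by -0.47 (SE 0.171, adjusted p = 0.383), and by -0.26 without the first Ly49E+CD8aa- array.

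Ifit1 lay at 7.56, 7.50 and 7.22 in Ly49E+CD8aa- cells, at 6.77, 7.29 and 7.19 in Ly49E+CD8aa+ cells and at 6.77, 6.89 and 7.17 in Ly49E-CD8aa+ cells. The Ly49E+CD8aa- arrays were above the Ly49E-CD8aa+ arrays and overlapped with the Ly49E+CD8aa+ arrays. For Ifit1, Ly49E+CD8aa- differed from Ly49E-CD8aa+ by 0.48 (SE 0.158, adjusted p = 0.263, limma), and Ly49E+CD8aa+ differed from Ly49E+CD8aa- by -0.34 (SE 0.158, adjusted p = 0.56).

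Ifit2 lay at 6.72, 6.62 and 6.40 in Ly49E+CD8aa- cells, at 6.70, 7.08 and 6.70 in Ly49E+CD8aa+ cells and at 6.69, 6.98 and 6.98 in Ly49E-CD8aa+ cells. Here the Ly49E+CD8aa- cells had the lowest mean, though every pair of populations overlapped. For Ifit2, Ly49E+CD8aa- differed from Ly49E-CD8aa+ by -0.31 (SE 0.133, adjusted p = 0.469, limma). The window of Ifit2 held TTCNNNGAA and not the response-element core, in contrast to the windows of Ifit1 and Ifit3 above, which says only what letters lie in these windows.

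The OAS enzymes make the 2′-5′ oligoadenylates that switch on RNase L. Oas1a lay at 9.27, 9.27 and 9.14 in Ly49E-CD8aa+ cells, at 9.08, 8.68 and 8.99 in Ly49E+CD8aa+ cells and at 8.92, 8.48 and 8.77 in Ly49E+CD8aa- cells. All 6 Ly49E+ arrays were below the Ly49E-CD8aa+ arrays, as for Eif2ak2. For Oas1a, Ly49E+CD8aa- differed from Ly49E-CD8aa+ by -0.51 (SE 0.132, 1.42-fold lower, adjusted p = 0.127, limma), and Ly49E+CD8aa+ differed from Ly49E-CD8aa+ by -0.31 (SE 0.132, unadjusted p = 0.0419 from limma, adjusted p = 1). Without the second Ly49E+CD8aa+ array the latter was -0.19. Oas genes have close paralogs in the mouse, and their probes are open to cross-hybridisation.

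Oasl2, an OAS-like protein with ubiquitin-like domains, lay at 7.17, 6.73 and 7.14 in Ly49E+CD8aa- cells, at 6.84, 6.64 and 6.13 in Ly49E+CD8aa+ cells and at 6.71, 6.32 and 6.48 in Ly49E-CD8aa+ cells. The Ly49E+CD8aa- arrays were above the Ly49E-CD8aa+ arrays and overlapped with the Ly49E+CD8aa+ arrays, whose 3 values were far apart. For Oasl2, Ly49E+CD8aa- differed from Ly49E-CD8aa+ by 0.51 (SE 0.191, adjusted p = 0.36, limma). Its difference of Ly49E+CD8aa+ from Ly49E+CD8aa- was -0.48 (SE 0.191), and -0.27 without the third of the Ly49E+CD8aa+ arrays. Oas2 and Oas3 differed by at most 0.12 in size, and Oasl1 by at most 0.21.

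The Mx GTPases, which trap viral nucleocapsids, gave little to compare. Mx1 lay between 4.03 and 4.36 on all 9 arrays, and no other of the 37 genes had a mean under the 25th percentile of rows on every array. Mx2 lay between 4.81 and 6.50. Its highest value was on the first Ly49E+CD8aa- array and its lowest on the third Ly49E+CD8aa+ array, and none of its differences had an unadjusted p under 0.05.

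Of the other antiviral genes, all 8 measured had lower means in Ly49E+CD8aa+ than in Ly49E+CD8aa- cells, with a median log2 difference of -0.19, as did 40.4% of all genes, and none of the 8 was called. Rsad2 encodes viperin, which makes a chain-terminating nucleotide. Rsad2 lay at 7.35, 7.05 and 6.98 in Ly49E+CD8aa- cells, at 6.73, 6.82 and 6.99 in Ly49E+CD8aa+ cells and at 6.95, 6.95 and 6.81 in Ly49E-CD8aa+ cells. The first Ly49E+CD8aa- array was the highest, and the third lay just under the highest Ly49E+CD8aa+ array. For Rsad2, Ly49E+CD8aa+ differed from Ly49E+CD8aa- by -0.28 (SE 0.11, adjusted p = 0.443, limma), and by -0.17 without the first Ly49E+CD8aa- array.

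Rtp4, a receptor transporter protein with antiviral activity, lay at 9.24, 9.03 and 9.39 in Ly49E+CD8aa- cells, at 9.03, 8.86 and 8.89 in Ly49E+CD8aa+ cells and at 8.95, 8.97 and 9.03 in Ly49E-CD8aa+ cells. Its second Ly49E+CD8aa- array lay at the top of the range of the other populations, so that the groups touched. For Rtp4, Ly49E+CD8aa+ differed from Ly49E+CD8aa- by -0.29 (SE 0.0948, adjusted p = 0.295, limma). Ly49E+CD8aa- differed from Ly49E-CD8aa+ by 0.24 (SE 0.0948), and by 0.15 without the third of the Ly49E+CD8aa- arrays. Cmpk2, the mitochondrial nucleotide kinase next to Rsad2, and Samd9l, Xaf1, Ifi35 and Lgals3bp differed by at most 0.24 in size, with no unadjusted p under 0.05.

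Bst2 encodes tetherin, which holds budding virions at the cell surface and is also a surface marker of plasmacytoid dendritic cells. Bst2 lay at 9.82, 8.60 and 9.15 in Ly49E-CD8aa+ cells, at 8.24, 8.49 and 8.82 in Ly49E+CD8aa+ cells and at 9.14, 8.57 and 8.69 in Ly49E+CD8aa- cells. The Ly49E-CD8aa+ arrays were spread widely (SD 0.614), and the first of them was the highest of all 9. For Bst2, Ly49E+CD8aa+ differed from Ly49E-CD8aa+ by -0.67 (SE 0.289, unadjusted p = 0.0443 from limma, adjusted p = 1), and the groups overlapped. Without the first Ly49E-CD8aa+ array the difference of Bst2 was -0.36.

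Most markers of plasmacytoid dendritic cells had lower means in the Ly49E+ populations than in Ly49E-CD8aa+ cells. Of 9 listed markers 8 were measured, and 5 of the 8 (Siglech, Ly6d, Cox6a2, Spib and Blnk) were called lower in each Ly49E+ population than in Ly49E-CD8aa+ cells, with 0.11% of all genes called lower in Ly49E+CD8aa+ and 0.802% in Ly49E+CD8aa- cells. Pacsin1 had differences of 0.05 and 0.40, the other way, and was not called. Siglech, a surface lectin of these cells, lay at 7.84, 7.26 and 7.43 on the Ly49E-CD8aa+ arrays and between 5.46 and 5.69 on the other 6. The log2 of the summed level of the 8 markers ranged from 9.95 to 10.32 in Ly49E-CD8aa+ cells, from 9.26 to 9.43 in Ly49E+CD8aa+ cells and at 9.40 in Ly49E+CD8aa- cells. The summed level of 10 macrophage and monocyte markers was also highest there, at 9.15 to 9.68, against 8.75 to 8.80 and 8.44 to 8.51. Of those 10, only Cybb and Mpeg1 were called, lower in each Ly49E+ population, and Lyz2 lay the other way at 0.18 and 0.19. Of 9 conventional dendritic cell markers, Cd209a (-1.10) and Clec9a (-0.73) were called lower and Batf3 (0.83) higher in Ly49E+CD8aa- against Ly49E-CD8aa+ cells. Against Ly49E-CD8aa+ cells, 8 of the 9 were lower in Ly49E+CD8aa+ (50.3% of all genes) and 6 in Ly49E+CD8aa- cells (58.7%). The list summed to 10.22 to 10.48 in Ly49E+CD8aa- cells, 9.89 to 10.12 in Ly49E+CD8aa+ and 9.87 to 10.22 in Ly49E-CD8aa+ cells. That sum was carried by Itgax, at 9.21 to 10.07, while the other markers lay at 7.47 or below. Against Ly49E-CD8aa+ cells, 24 of the 37 interferon-stimulated genes had lower means in Ly49E+CD8aa+ cells (64.9%, against 50.3% of all genes). The other 13 were higher (35.1%, against 49.7%). In Ly49E+CD8aa- cells 15 of the 37 were lower (40.5%, against 58.7%) and 22 higher (59.5%, against 41.2%). Eif2ak2, Oas1a and Bst2 were lower in both Ly49E+ populations, and Ifit1 and Ifit3 were higher in both. The part of these marker lists in the differences of the interferon-stimulated genes was not tested.

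The inducible GTPases guard against intracellular pathogens. Gbp3 lay at 7.41, 7.47 and 6.97 in Ly49E+CD8aa- cells, at 6.97, 7.09 and 7.12 in Ly49E+CD8aa+ cells and at 6.89, 7.06 and 6.86 in Ly49E-CD8aa+ cells. The first and second Ly49E+CD8aa- arrays were above all others and the third was not. For Gbp3, Ly49E+CD8aa- differed from Ly49E-CD8aa+ by 0.34 (SE 0.127, adjusted p = 0.354, limma), and without the third of them Gbp3 was the 1 of the 37 genes called in this comparison, with a difference of 0.50 and an adjusted p of 0.0341. Irgm1 differed by at most 0.25 in size. Gbp genes form a cluster of near-identical sequences, so the signal of Gbp3 may hold that of its relatives.

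The antigen-processing genes varied little. Tap1, a subunit of the peptide transporter for MHC class I, lay at 8.38, 8.26 and 8.12 in Ly49E+CD8aa+ cells, at 8.49, 8.41 and 8.39 in Ly49E+CD8aa- cells and at 8.33, 8.43 and 8.40 in Ly49E-CD8aa+ cells. The Ly49E+CD8aa+ arrays were below the Ly49E+CD8aa- arrays, with 8.38 against 8.39 at the closest, and overlapped with the others. For Tap1, Ly49E+CD8aa+ differed from Ly49E+CD8aa- by -0.18 (SE 0.0779, unadjusted p = 0.0488 from limma, adjusted p = 0.526), and it was -0.11 without the third of the Ly49E+CD8aa+ arrays. Psmb8 and Psmb9, catalytic subunits of the immunoproteasome, differed by at most 0.10 in size, and Psmb9 lay between 11.69 and 11.96 on all 9 arrays.

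**Figure D3:**
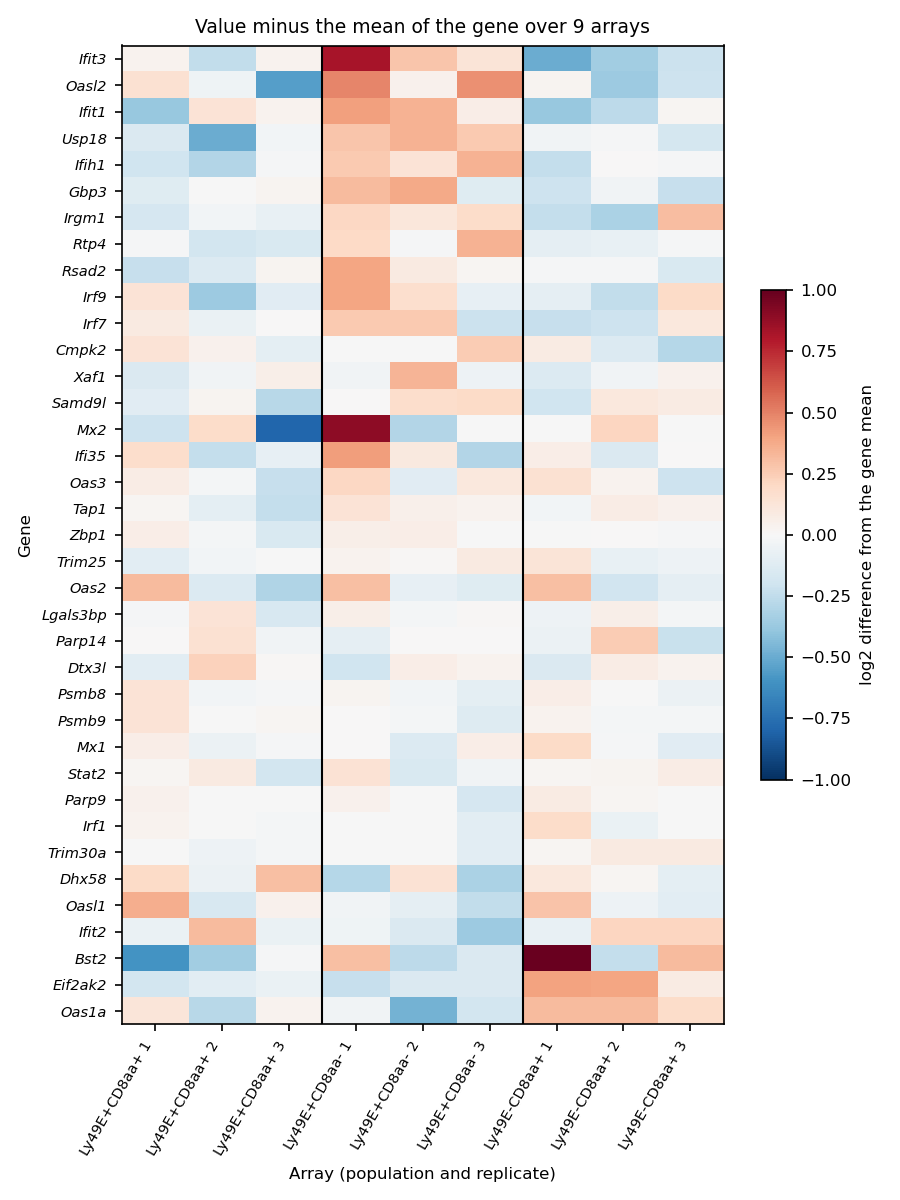
Value of each of the 37 genes on each array minus the mean of that gene over the 9 arrays (log2, colour scale from -1 to 1), with genes in the order of the plot of differences and the 3 populations set apart by lines. The first Ly49E+CD8aa- array holds most of the strongest positive values of that population, among them Ifit3 and Mx2, and Bst2 is highest on the first Ly49E-CD8aa+ array.

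A single array bore on the level of the family in Ly49E+CD8aa- cells. The mean deviation of the 37 genes from their means over the 9 arrays was 0.154 on the first array of that population, 0.031 on the second and -0.009 on the third. On the Ly49E+CD8aa+ arrays it was -0.013, -0.060 and -0.083, and on the Ly49E-CD8aa+ arrays 0.020, -0.025 and -0.014. The planned measure, the median deviation over the 37 genes, was smaller on the Ly49E+CD8aa- arrays, at 0.058, 0.000 and -0.005. By that median the other arrays lay between -0.041 and 0.012. Within Ly49E+CD8aa- cells, 23 of 37 genes were highest on the first array (62.2%, against 37.8% of all genes). Without that array, the median difference of Ly49E+CD8aa+ from Ly49E+CD8aa- was -0.05 and that of Ly49E+CD8aa- from Ly49E-CD8aa+ was 0.01. The summed level of 13 enterocyte markers was also highest on the first array of each population, at 13.46, 13.42 and 13.48, against 12.63 to 13.01 on the other 6. That of 7 secretory epithelium markers was highest on the same arrays, at 11.05, 11.38 and 10.82, with the first Ly49E+CD8aa- array the highest of all 9. In the enterocyte sum the brightest markers weighed most, among them Apoa1 at 10.76 to 11.75 and Apoa4 at 10.26 to 11.37. Not every marker was highest on the first arrays. Epcam lay at 8.79, 8.94 and 9.02 in Ly49E+CD8aa+ cells, and Cdh1 at 10.32, 10.44 and 10.24 in Ly49E+CD8aa- cells. The part of either list in the values of the interferon-stimulated genes was not tested.

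**Figure D4:**
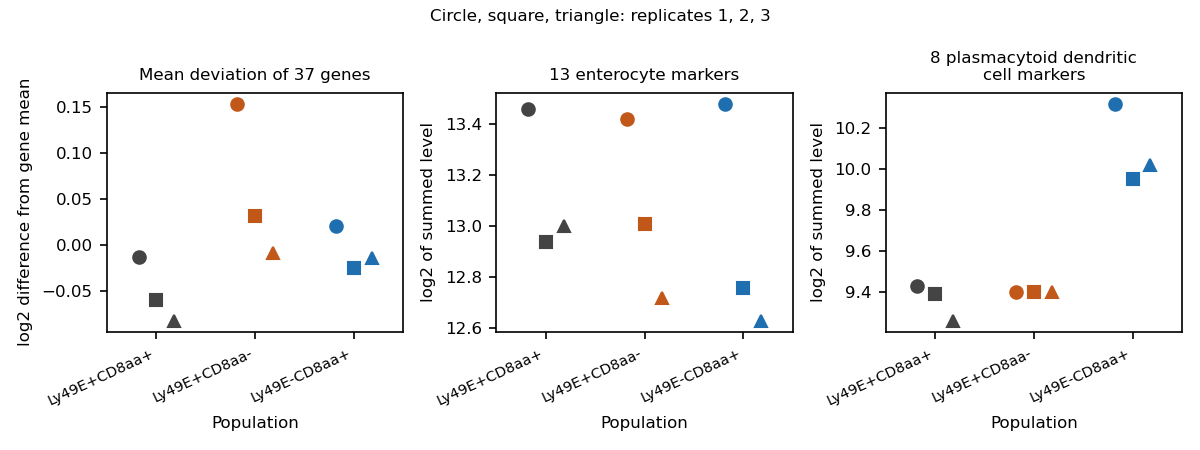
Left, mean over the 37 genes of the log2 difference from the mean of each gene over 9 arrays. Middle and right, log2 of the summed level of 13 enterocyte markers and of 8 plasmacytoid dendritic cell markers. Each point is an array. The first Ly49E+CD8aa- array is highest at 0.154 on the left, the first array of each population is highest in the middle, and the Ly49E-CD8aa+ arrays are highest on the right.

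Upstream of these genes, a receptor chain, a transcription factor and a phosphatase were called. Of 6 interferon receptor chains, 1 passed the test, with Ly49E+CD8aa- cells above each of the other populations. It was Ifngr1, the ligand-binding chain of the interferon gamma receptor. Ifngr1 lay at 10.30, 10.22 and 9.87 in Ly49E+CD8aa- cells, at 9.53, 9.54 and 9.52 in Ly49E+CD8aa+ cells and at 9.15, 9.47 and 9.35 in Ly49E-CD8aa+ cells. The 3 populations did not overlap. The difference was 0.81 from Ly49E-CD8aa+ (SE 0.12, adjusted p = 0.00822, limma), and Ly49E+CD8aa+ differed from Ly49E+CD8aa- by -0.60 (SE 0.12, adjusted p = 0.044). The second of these calls passed in 8 of 19 alternative settings (adjusted p up to 0.314) and was kept, among fits without 1 array, only without the third Ly49E+CD8aa- or the first Ly49E-CD8aa+ array, while the first passed in 17. Ifnar2, a chain of the type I receptor, lay at 9.25 to 9.43 in Ly49E+CD8aa- cells and at 8.77 to 9.08 on the other 6 arrays, with an adjusted p of 0.202 and 0.252 (limma). Il10rb, shared by the type III receptor, had its largest difference at 0.17.

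Among the further IRF factors, Irf5, which drives inflammatory genes below Toll-like receptors, was called in the same pair of comparisons. Irf5 lay at 7.26, 7.38 and 7.26 in Ly49E+CD8aa- cells, at 6.40, 6.71 and 6.65 in Ly49E+CD8aa+ cells and at 6.74, 6.73 and 6.88 in Ly49E-CD8aa+ cells. The Ly49E+CD8aa- arrays were above all others. Ly49E+CD8aa+ differed from Ly49E+CD8aa- by -0.71 (SE 0.0911, adjusted p = 0.00387, limma) and Ly49E+CD8aa- from Ly49E-CD8aa+ by 0.52 (SE 0.0911, adjusted p = 0.0198). These calls passed in 18 and 13 of 19 alternative settings. The second was lost without any 1 of the Ly49E+CD8aa- arrays and without the first or the second Ly49E-CD8aa+ array, with an adjusted p of up to 0.112. Irf8, a factor of myeloid and dendritic cells, and Irf3, the factor activated by nucleic acid sensors, were not called, with largest differences of -0.45 (Ly49E+CD8aa- minus Ly49E-CD8aa+) and 0.35 (Ly49E+CD8aa+ minus Ly49E-CD8aa+).

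**Figure D5:**
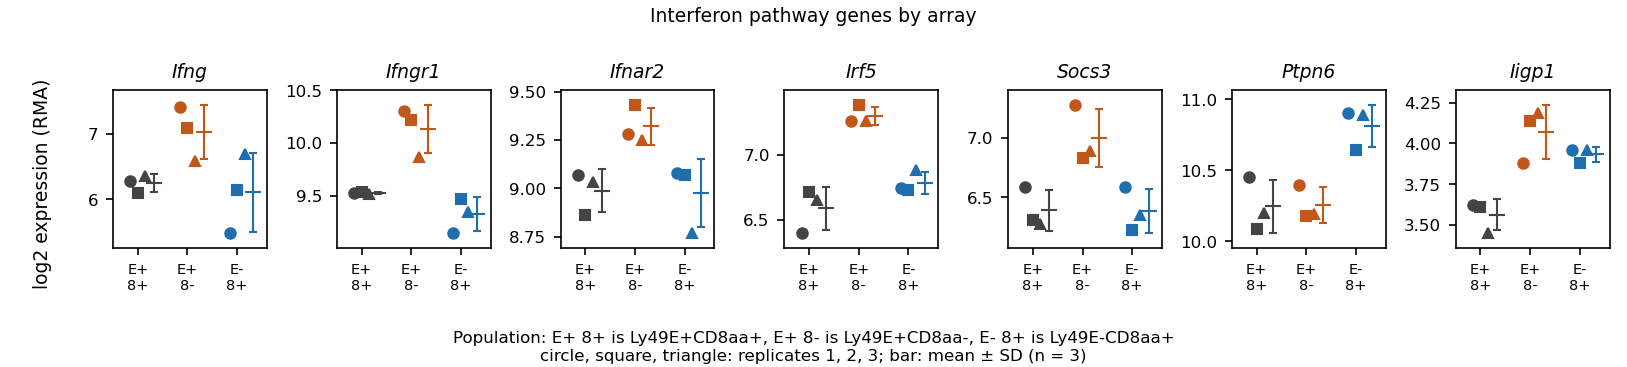
log2 expression (RMA) of 7 genes of the interferon pathway by array in the 3 populations, 1 panel each with its own axis, with bars for the mean ± SD over 3 arrays. Ifngr1 and Irf5 are highest on the 3 Ly49E+CD8aa- arrays, and Ptpn6 is highest on the 3 Ly49E-CD8aa+ arrays.

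None of 15 measured interferon ligands was called. Of all genes, 0.13% were called for Ly49E+CD8aa+ against Ly49E-CD8aa+, 1.7% for Ly49E+CD8aa+ against Ly49E+CD8aa- and 2.15% for Ly49E+CD8aa- against Ly49E-CD8aa+ cells. Ifng, the type II interferon made by lymphocytes, lay at 7.40, 7.08 and 6.58 in Ly49E+CD8aa- cells, at 6.28, 6.10 and 6.36 in Ly49E+CD8aa+ cells and at 5.49, 6.14 and 6.69 in Ly49E-CD8aa+ cells. The Ly49E+CD8aa- arrays were above the Ly49E+CD8aa+ arrays and overlapped with the Ly49E-CD8aa+ arrays, and the differences were -0.78 (Ly49E+CD8aa+ minus Ly49E+CD8aa-, SE 0.289, adjusted p = 0.397, limma) and 0.92 (Ly49E+CD8aa- minus Ly49E-CD8aa+, adjusted p = 0.238). Ifna13, a type I interferon gene, lay at 3.01 to 3.78, among the dimmest rows.

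Of 7 negative regulators, Ptpn6, which encodes the phosphatase SHP-1, was the 1 called, lower in Ly49E+CD8aa- cells against Ly49E-CD8aa+ cells. In that comparison 0.802% of all genes were called lower. Ptpn6 lay at 10.90, 10.64 and 10.89 in Ly49E-CD8aa+ cells, at 10.45, 10.09 and 10.20 in Ly49E+CD8aa+ cells and at 10.40, 10.18 and 10.19 in Ly49E+CD8aa- cells. All 6 Ly49E+ arrays were below the Ly49E-CD8aa+ arrays. The difference was -0.55 for Ly49E+CD8aa- (SE 0.115, adjusted p = 0.0453, limma) and -0.56 for Ly49E+CD8aa+ (SE 0.115, adjusted p = 0.306). The call passed in 9 of 19 alternative settings (adjusted p up to 0.168) and was lost when any 1 array other than the first Ly49E+CD8aa+ or the second Ly49E-CD8aa+ array was left out. Socs3, an inhibitor of JAK kinases, lay at 6.83 to 7.27 in Ly49E+CD8aa- cells and at 6.23 to 6.59 on the other 6 arrays, with adjusted p values of 0.0901 and 0.077 (limma). Pias4, a SUMO ligase of the PIAS family, had a largest difference of 0.25.

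None of 12 measured upstream sensors and adaptors was called, with 0.13% to 2.15% of all genes called per comparison. Tlr7, the endosomal receptor for single-stranded RNA, had a difference of -0.60 (SE 0.233) of Ly49E+CD8aa+ from Ly49E-CD8aa+ without passing the adjusted test, and Tlr9, the receptor for unmethylated DNA, lay at 7.13 on the first Ly49E-CD8aa+ array and at 5.64 to 5.88 on the other 8.

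Of 47 measured further interferon-stimulated genes outside the 41, called genes were all lower in Ly49E+CD8aa+ cells, 1 against Ly49E-CD8aa+ (0.11% of all genes) and 2 against Ly49E+CD8aa- cells (1.22% of all genes). Ifitm3, a membrane protein that blocks viral fusion, accounts for the first and 1 of the second. It lay at 5.26, 5.32 and 4.88 in Ly49E+CD8aa+ cells and between 6.45 and 7.65 on the other 6 arrays, with a difference of -1.92 in each comparison (SE 0.272, adjusted p = 0.0438 and 0.00675, limma). Against Ly49E-CD8aa+ cells the call passed in 7 of 19 alternative settings (adjusted p up to 0.565) and was kept, among fits without 1 array, only without the second Ly49E-CD8aa+ array, while against Ly49E+CD8aa- cells it passed in 18. Iigp1, an inducible GTPase, was called lower in Ly49E+CD8aa+ cells against Ly49E+CD8aa- (difference -0.51, SE 0.0932, adjusted p = 0.0273, limma), on a dim row at 3.45 to 4.19. That call passed in 6 of 17 alternative settings (adjusted p up to 0.114) and was kept, among fits without 1 array, only without the first Ly49E+CD8aa- array. Slfn5, a member of the Schlafen family, differed by -1.09 (SE 0.271, adjusted p = 0.114, limma) and Ifi209, listed under its older name Pyhin1, a DNA-binding protein of the interferon-inducible p200 family, by -1.06 (SE 0.227, adjusted p = 0.062, limma) between the same populations. The p200 genes are close relatives, and their probes are open to cross-hybridisation. The median difference of the 47 genes was -0.06 between Ly49E+CD8aa+ and Ly49E+CD8aa- cells, -0.01 between Ly49E+CD8aa+ and Ly49E-CD8aa+ cells and 0.06 between Ly49E+CD8aa- and Ly49E-CD8aa+ cells.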

How the data were processed

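Each deposited value was a log2 level of 1 row on 1 array, made with RMA per the submitters' processing notes. Its version, the genome build and any later centring are not given in these sources. Per the labels' protocols, the RNeasy Plus Micro and NuGEN Ovation Pico WTA V2 kits served to isolate and amplify the RNA. Such whole-transcriptome amplification can add spread between arrays.

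Of 35556 rows, 21789 carried 1 gene symbol in the platform annotation, 1621 several, and 12146 were not listed. A total of 21698 rows were matched to a current RefSeq record by identifier. The brightest row stood for each of 999 genes with more than 1 row, which left 19938 genes, all tested. A mean per population was fitted to all 9 arrays with limma 3.58.1 in R 4.3.3, with empirical Bayes moderation (prior degrees of freedom 3.08, residual 6), 2-sided tests and Benjamini-Hochberg adjustment over the 19938 genes. Genes were called at an adjusted p under 0.05. The number of arrays limits the precision. The script was tested on simulated data.

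The members and lists were chosen with earlier results of these data known. Values on every array are given for members called or with an unadjusted p under 0.05 in a comparison, and for the member with the widest difference in each role group. From each pathway list, called genes and up to 2 others with the widest differences are named. Marker lists were summed on the linear scale. Secretory epithelium markers summed to 9.72 to 11.38 (log2), B and plasma cells to 9.60 to 10.11, granulocytes and mast cells to 7.30 to 7.74, stroma and endothelium to 9.71 to 10.29, and the labelled lymphocytes to 15.06 to 15.34. Alternatives covered the arrays fitted, filters on dim genes, normalization, centring, the variance prior, array weights, the row per gene, a replicate block, leaving out each array and, added after seeing the data, leaving out the 3 arrays numbered 1. No detection calls were used, and a low value was not read as absence. 1 gene of the pathway lists is not reported here.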

Additional observations from a re-analysis of the deposited data

How the results depend on the processing

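Of 30 differences followed over up to 19 alternative settings, 20 of members and 10 of pathway genes, 0 turned direction. Each of the 30 was followed because its unadjusted p (limma) was under 0.05 in the fit to all 9 arrays. The settings reuse most or all of the same arrays, so a turn was unlikely from the start and its absence is no support. The 1 call between Ly49E+CD8aa- and Ly49E-CD8aa+ cells became 0 when only the 6 arrays compared were fitted, with a replicate block and without the 3 arrays numbered 1, and became 2 with a filter at the median of gene means and with quantile normalization again. Leaving out 1 array at a time gave 0 to 2 calls. Between Ly49E+CD8aa+ and Ly49E+CD8aa- cells, array weights gave 1 call and leaving out 1 array gave 0 to 1. Over the 3 populations, the F test called 1 member with a filter at the 25th percentile or the median of gene means and with array weights, and 0 to 1 with 1 array left out; the cause of these changes was not tested. With array weights the median difference of the members was -0.120 between Ly49E+CD8aa+ and Ly49E+CD8aa- cells and 0.074 between Ly49E+CD8aa- and Ly49E-CD8aa+ cells. Leaving out 1 array gave -0.057 to -0.010 for Ly49E+CD8aa+ against Ly49E-CD8aa+, -0.129 to -0.032 for Ly49E+CD8aa+ against Ly49E+CD8aa- and 0.008 to 0.065 for Ly49E+CD8aa- against Ly49E-CD8aa+. The range of the level of the members over the 9 arrays was 0.098 with the median over members, 0.238 with the mean over members and 0.134 after centring on array medians. Arrays numbered 1 had residual correlations of 0.13 to 0.22 with each other and of -0.17 to -0.02 with arrays of other numbers, but other same-numbered pairs had -0.06 to 0.12, so the numbers were not taken to pair the arrays. Without the 3 arrays numbered 1, the difference of Ifit3 between Ly49E+CD8aa- and Ly49E-CD8aa+ cells was 0.48 and that of Bst2 between Ly49E+CD8aa+ and Ly49E-CD8aa+ cells was -0.22. With the replicate block, 17, 374 and 417 of all genes were called in the 3 comparisons, against 26, 339 and 429 without it. With 3 arrays per population, differences near the median SE of 0.113 were not resolved.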
